A study of Mus musculus with 36 samples.

Results

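Replication-dependent histone genes were followed in mouse embryonic stem cells under 3 treatments over 6 days. The members are the protein-coding genes of the deposited count table whose names begin with Hist1h, Hist2h, Hist3h or Hist4h. There were 67 of them among 55335 genes, namely 6 of class H1, 18 of H2A, 18 of H2B, 12 of H3 and 13 of H4. Polyadenylated RNA was sequenced from 36 libraries, 3 in each of 12 groups: BPK25, IAA and DMSO, each at days 0, 2, 4 and 6. For BPK25 the labels give no more than its code name. Auxin (IAA) is a plant hormone used in degron systems to remove a tagged protein, and DMSO is the usual solvent control. The tagged protein, the doses, the event from which days are counted, and whether all libraries come from 1 clone are not stated in the labels used here. The growth protocol names irradiated mouse fibroblasts as the usual feeder layer. No label says that the 3 libraries of a group were separate cultures. The p-values therefore measure only spread among these libraries, which may be technical.

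Histones package DNA: H3 with H4, and H2A with H2B, form the core of the nucleosome, and the linker histone H1 binds the DNA between cores. Replication-dependent histone genes lie in clusters, lack introns in the main, and are transcribed mostly in S phase, when new DNA must be packaged. Their messenger RNAs typically end in a conserved stem-loop bound by the stem-loop binding protein SLBP, and not in a poly(A) tail. Some of these genes also make polyadenylated transcripts, particularly in cells that leave the cycle. Libraries made from polyadenylated RNA thus capture an unknown part of the histone RNA. In bulk RNA, fewer cells in S phase and less histone RNA per cell cannot be told apart.

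The stem-loop that defines these messages was found in the annotated transcript of 46 of the 67 members (GENCODE M21, GRCm38, searched on the transcript strand with the 16-base histone stem-loop consensus). For comparison, 0.101% of the 21834 other protein-coding genes held a match. The commonest form, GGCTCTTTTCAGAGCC, occurred in 26 members (3 of H1, 10 of H2A, 8 of H2B and 5 of H3), whereas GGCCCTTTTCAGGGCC occurred in 7 members, all of H4. The sequences below show the stem-loop in capitals with flanking bases in lower case, for genes whose values are described later, so that the forms can be compared between classes. In the order listed, the stem-loops lie at chr13:23739512-23739527 on the + strand for Hist1h1c, chr13:21810898-21810913 (+) for Hist1h2ao, chr11:58949349-58949364 (+) for Hist3h2ba, chr13:23745047-23745062 (-) for Hist1h3c, chr13:22040966-22040981 (-) for Hist1h4i and chr13:23581950-23581965 (+) for Hist1h4d.
Hist1h1c: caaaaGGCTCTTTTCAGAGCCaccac
Hist1h2ao: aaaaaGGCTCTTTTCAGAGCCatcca
Hist3h2ba: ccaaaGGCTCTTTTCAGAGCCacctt
Hist1h3c: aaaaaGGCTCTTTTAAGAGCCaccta
Hist1h4i: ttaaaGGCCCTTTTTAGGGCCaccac
Hist1h4d: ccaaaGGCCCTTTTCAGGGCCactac

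The annotated transcripts ended within 100 bases of the stem-loop in 23 members, among them Hist1h2ao (31 bases after it) and Hist1h3c (74 bases). In 23 others they ran further, among them Hist1h1c (840 bases), Hist3h2ba (169 bases) and Hist3h2a (1643 bases). Of those 23 longer transcripts, 10 held AATAAA, the usual signal for polyadenylation, in the last 40 bases, as did Hist1h1c, Hist3h2ba and Hist3h2a. None of the 23 shorter ones did, and 3 of the 21 transcripts with no match did. Of all protein-coding transcripts, 39.3% held AATAAA there. No match says only that these letters are not in the annotated transcript.

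Nearly all histone reads came from H2A genes. H2A held 89.8% of the 165265 counts assigned to the members, H1 4.89%, H2B 2.81%, H4 1.48% and H3 1.02%. Hist1h2ao (38691 counts), Hist1h2ap (32649), Hist1h2ah (22519), Hist1h2ag (18786), Hist1h2af (9416), Hist1h2an (9202), Hist1h2ak (8693) and Hist1h2ai (4379) together made up 87.35%. Per kb of transcript the leading genes were Hist1h2ao at 227.5 CPM per kb in H2A, Hist1h1c at 11.9 in H1, Hist1h4k at 5.12 in H4, Hist3h2ba at 3.76 in H2B and Hist1h3h at 1.97 in H3. CPM are counts scaled to a common library total. The H2B gene with the next level after Hist3h2ba, which lies on chromosome 11, was Hist1h2bc on chromosome 13, at 3.75 CPM per kb, nearly the same. H2A and H2B genes often sit head to head, and 12 such pairs had starts 176 to 306 bases apart. The H2A gene had more counts in 9 of the 12, for example Hist1h2ao with 38691 against 142 for its partner Hist1h2bq. The reverse held for Hist1h2ac, with 339 counts against 1539 for Hist1h2bc. Of the 50-base windows of Hist1h2bq, 0.0% were found in no other transcript, against 6.5% for Hist1h2ao. Their counts are therefore uncertain, and the cause of the difference within that pair was not tested.

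**Figure D1:**
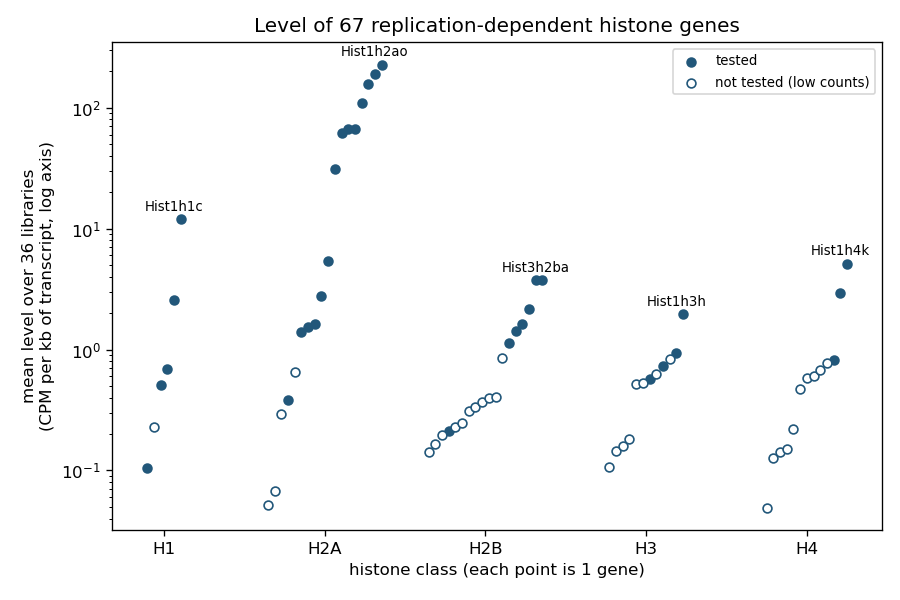
Mean level of each of the 67 histone genes over all 36 libraries (log axis, CPM per kb of the longest annotated transcript), by class, with genes tested as filled points and genes below the count filter as open points. The top H2A gene, Hist1h2ao at 227.5, stands above the top H1 gene, Hist1h1c at 11.9, and above every H2B, H3 and H4 gene.

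The H2A genes are near copies of one another, which limits how their counts can be read. Among the 8 leading H2A genes, the coding sequences of the 21 pairs of equal length were 96.4% to 100% identical (median 98.5%), and 6.0% to 43.0% of 50-base windows of a transcript were found in no other transcript. The sources used here do not give the strand setting or how reads that map to several places were handled. Counts of single H2A genes are therefore uncertain, and calls among them are not independent. Hist1h2af, which was called against DMSO in every treatment comparison below, differs from Hist1h2ao at 6 of 390 coding bases. The last 60 coding bases (positions 331 to 390 of the coding sequence) are shown to make this visible, with the 3 bases that differ in capitals. They lie at chr13:23534241-23534300 (+) for Hist1h2af and chr13:21810797-21810856 (+) for Hist1h2ao (GRCm38).
Hist1h2af: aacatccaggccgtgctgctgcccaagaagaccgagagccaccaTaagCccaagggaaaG
Hist1h2ao: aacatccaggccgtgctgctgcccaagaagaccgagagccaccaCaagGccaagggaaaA

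Library totals ran from 6621288 to 16497799 counts. Of the 67 members, 33 passed the filter on low counts and were tested (5 of H1, 14 of H2A, 7 of H2B, 4 of H3 and 3 of H4). The highest total among the 34 members left out was 179 counts over all libraries, and the lowest among those tested was 183. A gene could pass through the group where it was high, so counts below are given beside the share of all 17394 genes tested. Genes were called at an adjusted p under 0.05 by edgeR's quasi-likelihood test with Benjamini-Hochberg adjustment over all genes tested. The ± of a log2 fold change is an approximate standard error, taken from the fold change and its F value, and the ± of a level is the SD over 3 libraries.

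Summed over all 67 members, the histone level in DMSO was lower at day 2 than at day 0 and higher at days 4 and 6. At days 0, 2, 4 and 6 it was 382.8 ± 24.3, 343.6 ± 4.91, 571.7 ± 15.4 and 465.6 ± 43.2 CPM (SD, n = 3). The BPK25 sums were 503.5 ± 30.1, 539.0 ± 60.7, 469.5 ± 10.4 and 506.0 ± 8.75 CPM, and the IAA sums were 437.8 ± 34.0, 524.7 ± 21.9, 482.1 ± 6.60 and 371.2 ± 5.16 CPM. Both treatments were above DMSO at days 0 and 2, below it at day 4, and on opposite sides of it at day 6. The libraries of BPK25 and IAA did not overlap those of DMSO on any day in these sums, which were not tested. The 8 leading H2A genes held 87.35% of the member counts, and some of these differences were not seen without them, as given below.

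The classes did not move alike. All 5 classes of IAA at day 2 stood above DMSO without overlap, by 2.29 times for H3, 2.20 for H2B, 1.73 for H4, 1.60 for H1 and 1.49 for H2A. For BPK25 at day 4, H4 stood at 0.590 and H3 at 0.701 of DMSO and H2A at 0.798, while H2B was 1.22 times DMSO, all without overlap. The H2B sum there, 19.6 CPM in BPK25 against 16.1 CPM in DMSO, held 1 gene with a larger difference of its own, Hist3h2ba at 7.43 ± 0.673 CPM in BPK25 against 2.73 ± 0.608 CPM in DMSO. Among the 7 H2B genes tested, 1 was called higher and 1 lower, where 26.2% of all genes tested rose and 26.8% fell. The median log2 fold change of the 7 was 0.01. H1 in IAA at day 4 stood at 0.547 of DMSO, at 16.9 ± 0.558 CPM in IAA against 30.9 ± 3.14 CPM in DMSO. Most of the H1 sum is 1 gene, since Hist1h1c held 6534 of the 8084 H1 counts over all libraries. Among the 5 H1 genes tested, 2 were called lower and 0 higher there, where 25.9% of all genes tested fell and 25.9% rose. All 5 had negative values, but counts of so few genes are a description only. Since 8 H2A genes fill most of the total, the sum of the other 59 members was also taken. This smaller sum at day 4 came to 81.9 ± 2.40 CPM in BPK25 and 52.3 ± 1.38 CPM in IAA, against 78.8 ± 1.99 CPM in DMSO. Without the 8 genes, BPK25 and DMSO overlapped at day 4, whereas IAA remained below DMSO in all 3 libraries.

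**Figure D2:**
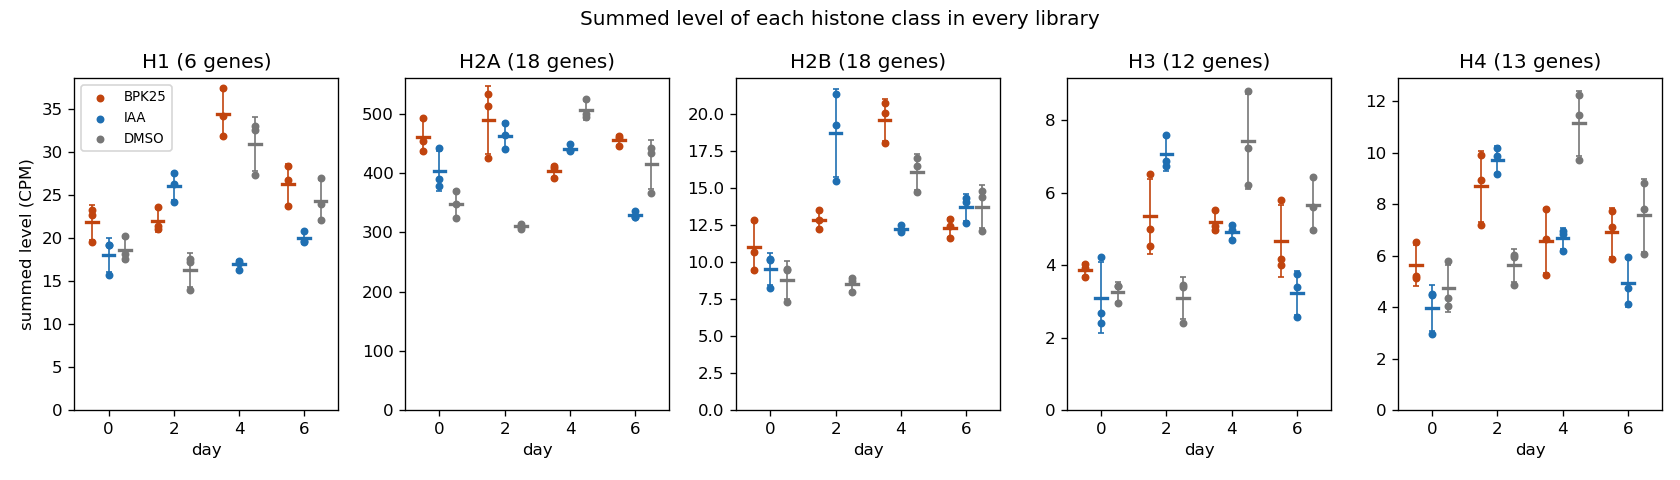
Summed level in CPM (linear axis) of each histone class by day, with 1 point per library, the group mean as a bar and the SD over 3 libraries as whiskers, for BPK25, IAA and DMSO from left to right at each day. The H1 sum of the IAA libraries at day 4 lies at 16.3 to 17.4 CPM, below the lowest DMSO library at 27.3 CPM.

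Hist1h2af, an H2A gene of the large cluster on chromosome 13 (chr13:23533906-23534304), differed from DMSO in all 8 treatment comparisons. At day 0 it stood at 50.8, 47.2 and 49.0 CPM in BPK25 and at 12.9, 13.9 and 15.1 CPM in IAA, against 26.7, 33.2 and 31.0 CPM in DMSO. The BPK25 libraries were all above the DMSO libraries and the IAA libraries all below them. At day 2 it stood at 50.9, 49.97 and 45.8 CPM in BPK25 and at 14.7, 12.3 and 13.7 CPM in IAA, against 30.5, 27.98 and 32.0 CPM in DMSO, in the same order. At day 4 both treatments lay below DMSO, with 16.4, 17.4 and 13.3 CPM in BPK25 and 10.7, 13.4 and 13.2 CPM in IAA, against 37.0, 36.7 and 32.3 CPM in DMSO. At day 6 the values were 25.3, 24.7 and 24.7 CPM in BPK25 and 6.28, 7.62 and 6.56 CPM in IAA, against 38.0, 36.4 and 31.5 CPM in DMSO. No treated library overlapped a DMSO library of its day.

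In BPK25 the log2 fold change of Hist1h2af was 0.70 ± 0.08 at day 0, 0.69 ± 0.08 at day 2, -1.19 ± 0.09 at day 4 and -0.51 ± 0.08 at day 6. In IAA it was -1.13 ± 0.11, -1.17 ± 0.10, -1.51 ± 0.09 and -2.39 ± 0.11 on the same days. The largest of these 8 adjusted p-values was 3.16e-05, at day 6 in BPK25 by edgeR. Every one of the 8 calls held without each library in turn. In DMSO, Hist1h2af moved little, with log2 fold changes of 0.23 ± 0.09 at day 4 and 0.23 ± 0.08 at day 6 against day 0. Its groups overlapped there, and both calls were lost without DMSO day 0 replicate 1 (0.13 each), that of day 4 also without DMSO day 0 replicate 3 (0.23) or DMSO day 4 replicate 1 (0.20) or 2 (0.21), and that of day 6 without DMSO day 6 replicate 1 (0.15) or 2 (0.20).

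The share of Hist1h2af in the counts of the 8 leading H2A genes does not depend on library scaling. It was 3.55% ± 0.0866, 3.02% ± 0.219, 2.89% ± 0.337 and 2.13% ± 0.229 in IAA at days 0, 2, 4 and 6, against 8.94% ± 0.976, 9.97% ± 0.803, 7.17% ± 0.510 and 8.86% ± 1.42 in DMSO (SD, n = 3). All IAA libraries had a lower share than all DMSO libraries of the same day. In BPK25 it was 10.9% ± 0.525, 10.3% ± 0.826, 4.06% ± 0.615 and 5.60% ± 0.167. At day 2 the BPK25 libraries, at 10.2%, 9.59% and 11.2%, overlapped the DMSO libraries, at 10.2%, 9.09% and 10.7%. The windows of Hist1h2af found in no other transcript are 6.0% of its 350, so which copy its reads came from is uncertain.

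**Figure D3:**
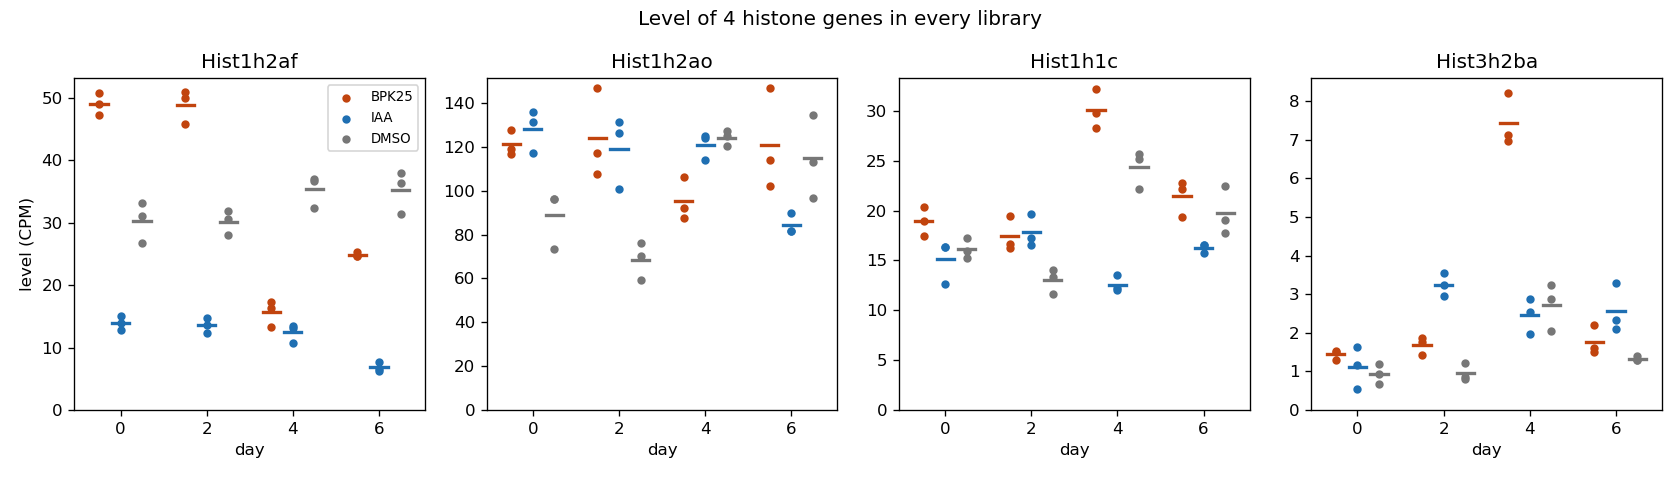
Level in CPM (linear axis) of Hist1h2af, Hist1h2ao, Hist1h1c and Hist3h2ba by day, with 1 point per library and a bar at the mean, for BPK25, IAA and DMSO from left to right at each day. For Hist1h2af the IAA libraries lie below the DMSO libraries on every day, between 6.28 and 15.1 CPM.

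In BPK25 at day 0, 5 of the 33 members tested rose and 0 fell, where 3.32% of all genes tested rose and 4.58% fell. All 5 were H2A genes. Their groups did not overlap. No member had an unadjusted p under 0.05 in the downward direction by edgeR, and DESeq2 called 0 lower. Beside Hist1h2af, the genes were Hist3h2a, the H2A gene of the small cluster on chromosome 11 (0.84 ± 0.23), Hist1h2ag (0.48 ± 0.11), Hist1h2ah (0.48 ± 0.10) and Hist1h2ao (0.44 ± 0.11). Hist3h2a had 4.66, 3.82 and 4.82 CPM in BPK25, against 2.86, 2.1 and 2.48 CPM in DMSO. All its BPK25 libraries were above DMSO, but its transcript overlaps Trim17 on the same strand. Hist3h2a held 1258 counts over all libraries, and the genes that overlap it held 1258 as well. The same reads may thus be counted for Hist3h2a and Trim17, and its values on every day are uncertain. The largest adjusted p of the 5 was 0.0146 by edgeR. The count was 3 without BPK25 day 0 replicate 1. Hist3h2a lost its call without that library (0.79) or DMSO day 0 replicate 2 (0.73), as did Hist1h2ag without DMSO day 0 replicate 1 (0.40), and Hist1h2ao without replicate 1 of BPK25 day 0 (0.40) or DMSO day 0 replicate 3 (0.34).

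At day 2, 10 members rose in BPK25 and 0 fell, where 6.4% of all genes tested rose and 7.12% fell. By edgeR 0 members fell at an unadjusted p under 0.05, and DESeq2 called 0 lower. The genes that rose were 8 H2A genes, the linker gene Hist1h1c (0.45 ± 0.11) and the H3 gene Hist1h3c. Hist1h2ao had 146.7, 117.3 and 107.6 CPM in BPK25, against 76.0, 70.0 and 59.3 CPM in DMSO, a log2 fold change of 0.88 ± 0.11 with no overlap. Its adjusted p was 1.78e-07 by edgeR. Hist1h3c rested on few reads, with 27 counts over the BPK25 libraries and 3 over the DMSO libraries. The ratio of its rates was 6.79, with an exact 95% interval of 2.09 to 35.0 that covers counting error only. Hist3h2a rose by 0.74 ± 0.22, a call lost without DMSO day 2 replicate 1 (0.53) or replicate 2 (0.70). The call of Hist1h1c failed when DMSO day 2 replicate 3 was left out (0.36), as did those of Hist1h2ak (0.73) and Hist1h2an (0.61), whose groups overlap and which also failed without BPK25 day 2 replicate 2 (0.51 and 0.48). The median log2 fold change of the 33 members was 0.69, against 0.00 over all genes tested.

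At day 4 in BPK25, members were called in both directions, with 12 lower and 5 higher, where 26.8% of all genes tested fell and 26.2% rose. The higher share among members, 15.2%, was below that of all genes, and the lower share, 36.4%, above it. With 1 library left out, the count lower was 8 to 11, and at 8 its share was not above that of all genes. The lower ones were Hist1h2af and 5 other H2A genes, the linker genes Hist1h1a and Hist1h1b, the H3 genes Hist1h3h and Hist1h3d, the H4 gene Hist1h4i and the H2B gene Hist2h2bb. Of the 17 calls, 7 held without each library. Hist1h1b, Hist1h3h, Hist1h2ab and Hist2h2bb had overlapping groups, as did Hist1h2ak among the higher ones, and all 5 lost their calls without some library (Hist1h2ab, at -1.32, had -0.22 without DMSO day 4 replicate 3). Hist1h2ao had 106.4, 92.1 and 87.5 CPM in BPK25, against 125.1, 127.3 and 120.2 CPM in DMSO, a log2 fold change of -0.38 ± 0.11. All BPK25 libraries were below DMSO. Hist1h4i had 2.82, 1.71 and 2.41 CPM in BPK25, against 4.43, 3.15 and 4.55 CPM in DMSO (-0.74 ± 0.25). Its groups did not overlap, but the call was lost without replicate 2 of BPK25 day 4 (-0.60) or DMSO day 4 replicate 1 (-0.65). Hist1h3d (-1.04 ± 0.45) lost its call in 4 of 6 fits with 1 library left out, with values of -0.79 without DMSO day 4 replicate 3, -0.82 and -0.95 without BPK25 day 4 replicates 2 and 3, and -1.14 without DMSO day 4 replicate 1.

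The members that rose in BPK25 at day 4 were Hist3h2ba, Hist3h2a, Hist2h2aa1, Hist1h2ak and Hist1h1c. Hist3h2ba, an H2B gene whose transcript runs past the stem-loop to an AATAAA, had 8.21, 6.97 and 7.12 CPM in BPK25, against 2.89, 3.24 and 2.06 CPM in DMSO. The lowest BPK25 library was above the highest DMSO library, and the log2 fold change was 1.41 ± 0.18 (adjusted p 3.65e-09 by edgeR). Its neighbour Hist3h2a rose by 0.71 ± 0.18, though its reads may be shared with Trim17. The linker gene Hist1h1c had 28.3, 32.2 and 29.8 CPM in BPK25, against 25.7, 25.2 and 22.2 CPM in DMSO (0.28 ± 0.09), with no overlap. The calls of Hist3h2ba, Hist3h2a and Hist1h1c held without each library. Hist2h2aa1 (0.75 ± 0.27) lost its call without replicate 1 of BPK25 day 4 (0.67) or DMSO day 4 replicate 2 (0.54), and the number of members higher was 3 without BPK25 day 4 replicate 1. Hist2h2aa1 has the same coding sequence as Hist2h2aa2 and no 50-base window of its own. It also overlaps Gm20634 on the same strand, and the genes that overlap it held 884 counts against its 576. Hist2h2bb, called lower above, has 0.0% of windows of its own and overlaps Gm42743 on the same strand. The genes that overlap it held 299 counts against its 216. Values of both genes are therefore uncertain on every day.

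At day 6 in BPK25, 1 member rose and 1 fell, where 4.01% of all genes tested rose and 3.08% fell. The lower one was Hist1h2af. The higher one was Hist1h2ag, with 61.7, 57.7 and 61.5 CPM in BPK25, against 49.6, 39.4 and 57.4 CPM in DMSO (0.30 ± 0.10), groups that lie close but do not overlap. Its adjusted p was 0.0485 by edgeR. The number of members higher was 0 without any 1 of the 3 BPK25 libraries or of DMSO day 6 replicates 1 and 2, and 3 without DMSO day 6 replicate 3. The value of Hist1h2ag was 0.19 without DMSO day 6 replicate 2.

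At day 0, 1 member rose in IAA and 1 fell, where 21.3% of all genes tested rose and 23.2% fell. Hist1h2ao had 131.3, 117.2 and 135.9 CPM in IAA, against 96.4, 96.4 and 73.6 CPM in DMSO (0.52 ± 0.11). Its IAA libraries were all above DMSO, and Hist1h2af, described above, was the one that fell. Both calls held without each library. The share of members called, 3.03% in each direction, was below that of all genes. The number higher was 2 without DMSO day 0 replicate 3 or without IAA day 0 replicate 1.

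The comparison with most members called among the treatments was IAA at day 2. There 18 of 33 rose, 54.5%, where 27.5% of all genes tested rose, and 1 fell, where 27.9% fell. The 18 comprised 4 of 5 H1 genes, 7 of 14 H2A, 5 of 7 H2B, 2 of 4 H3 and 0 of 3 H4 genes tested, and no group overlapped. Among the H4 genes, Hist1h4k, Hist1h4i and Hist1h4d all had positive values that did not pass. The only one that fell was Hist1h2af, while 6 of the other 7 leading H2A genes rose. The median of the 33 members was 0.81, against -0.01 over all genes tested. All but 2 of the 19 calls held without each library, the exceptions being Hist1h2bk (1.24 without DMSO day 2 replicate 3) and Hist2h2bb (0.85 without that library and 1.22 without IAA day 2 replicate 3).

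Hist1h1a, a linker gene with all its windows unique, had 3.81, 3.36 and 3.70 CPM in IAA at day 2, against 1.43, 1.47 and 1.32 CPM in DMSO (1.36 ± 0.25). The groups lay far apart. Hist1h1b, another linker gene, had 31 counts over the IAA libraries and 4 over DMSO (2.67 ± 0.65), and 3.96 without DMSO day 2 replicate 2, which held most of those 4. Hist2h2aa1 had 2.92, 2.37 and 2.66 CPM in IAA, against 0.574, 0.134 and 1.04 CPM in DMSO (2.02 ± 0.36), and 2.88 without DMSO day 2 replicate 3. Both were higher in all 3 IAA libraries. Hist3h2ba had 3.56, 2.96 and 3.23 CPM in IAA, against 0.860, 0.803 and 1.23 CPM in DMSO (1.68 ± 0.28). Hist1h3c had 26 counts in IAA and 3 in DMSO, a ratio of rates of 7.60 with an exact 95% interval of 2.33 to 39.2. The largest adjusted p among the 19 members was 0.0143 by edgeR.

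At day 4 in IAA, 8 members fell against DMSO and 0 rose, where 25.9% of all genes tested fell and 25.9% rose. Between days 2 and 4 the sum of all members went from 343.6 to 571.7 CPM in DMSO and from 524.7 to 482.1 CPM in IAA. The change of sign from day 2 thus came with a larger move in DMSO than in IAA. By edgeR 1 member was higher at an unadjusted p under 0.05, and DESeq2 called 0 higher and 4 lower. The share lower, 24.2%, was close to that of all genes. Hist1h1c, the leading linker gene, had 13.5, 12.2 and 12.01 CPM in IAA, against 25.7, 25.2 and 22.2 CPM in DMSO, near 0.511 of the DMSO level. The log2 fold change was -0.97 ± 0.10, with an adjusted p of 9.4e-12 by edgeR. Hist1h4i had 1.97, 1.67 and 2.77 CPM in IAA, against 4.43, 3.15 and 4.55 CPM in DMSO (-0.88 ± 0.24), with no overlap. Both calls, and those of Hist1h1a (-0.82 ± 0.22) and Hist1h2af, held without each library, while the other 4 were each lost without at least 1 library. The count lower was 4 without IAA day 4 replicate 1, and the count higher was 1 without DMSO day 4 replicate 1.

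At day 6, 12 members fell in IAA and 1 rose, where 30% of all genes tested fell and 30.6% rose. The 12 were 6 H2A, 3 H3, 2 H1 and 1 H4 gene. Hist1h3e had 0.0951, 0.388 and 0.121 CPM in IAA, against 0.986, 1.19 and 0.828 CPM in DMSO, with 5 counts against 38. All IAA libraries were below DMSO, and the log2 fold change of Hist1h3e was -2.32 ± 0.53, or -3.08 without IAA day 6 replicate 2. Hist1h2ab had 0.571, 0.129 and 0.243 CPM in IAA, against 1.16, 1.88 and 0.736 CPM in DMSO (-1.83 ± 0.60), and -2.65 without IAA day 6 replicate 1. Hist3h2ba, the member that rose, had 2.09, 2.33 and 3.28 CPM in IAA, against 1.39, 1.29 and 1.29 CPM in DMSO (0.92 ± 0.25). Its groups did not overlap, and its call held without each library. The largest adjusted p among the 13 was 0.0272 by edgeR, and 7 of the 13 calls were lost without some library, among them Hist1h1c (-0.18 without DMSO day 6 replicate 2) and Hist1h4i (-0.67 and -0.53 without IAA day 6 replicates 1 and 3).

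**Figure D4:**
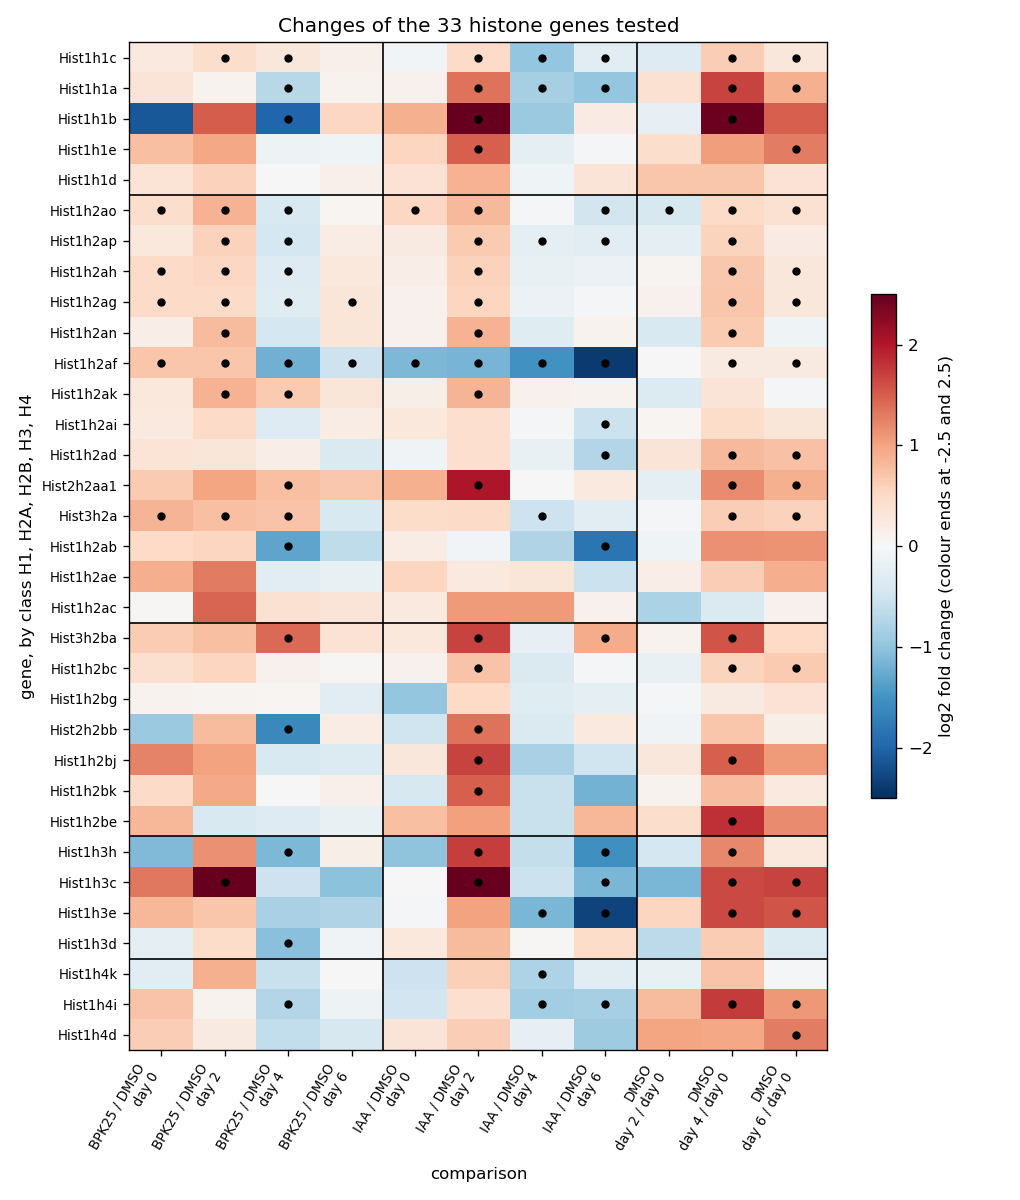
Log2 fold change of the 33 members tested (rows, by class and within a class by level) in 11 comparisons (columns), with a dot where a gene was called. The column of IAA at day 2 holds 18 dots on red cells (higher) and 1 on a blue cell (lower), in the row of Hist1h2af, which is blue in all IAA columns.

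In DMSO alone, every member called at day 4 or day 6 was higher than at day 0. At day 4 against day 0, 20 members rose and 0 fell, where 26% of all genes tested rose and 24.4% fell, and at day 6 against day 0, 15 rose and 0 fell, where 33.2% rose and 29.5% fell. At day 2 against day 0, 1 member fell and 0 rose, where 3.85% of all genes tested fell and 1.59% rose. By edgeR at an unadjusted p under 0.05, 0 members were lower at day 4 or 6 and 1 was higher at day 2, and DESeq2 called 0 in each of these directions. All 5 classes had members that rose at day 4 and at day 6. The count at day 4 was 13 without DMSO day 0 replicate 3. The count at day 6 was 9 without DMSO day 0 replicate 3 and 5 without DMSO day 6 replicate 1. Without each library in turn, 11 of the 20 calls of day 4 and 2 of the 15 of day 6 held. At day 6, 18 of the 33 did not pass, and the H2A sums of days 6 and 0 overlapped.

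Hist1h1a had 3.66, 4.00 and 2.497 CPM in DMSO at day 4, against 0.682, 1.44 and 1.09 CPM at day 0 (1.69 ± 0.29), with no overlap. Hist1h4i had 4.43, 3.15 and 4.55 CPM at day 4, against 0.818, 1.44 and 1.24 CPM at day 0 (1.76 ± 0.32). Both were higher in every day 4 library, and both calls held without each library. At day 6 the largest changes among called members without overlap were those of Hist1h3c (1.69 ± 0.53), Hist1h3e (1.57 ± 0.50) and Hist1h4d (1.29 ± 0.47). Hist1h3e had 0.986, 1.19 and 0.828 CPM at day 6, against 0.409, 0.394 and 0.155 CPM at day 0. Its call held without each library, while those of Hist1h3c (1.20) and Hist1h4d (0.93) were lost without DMSO day 6 replicate 1, and that of Hist1h4d also without DMSO day 0 replicate 3 (1.05). At day 2, the fall of Hist1h2ao (-0.40 ± 0.12, groups overlapping) was lost without replicate 1 or 2 of day 0 (-0.33 each) and without replicate 2 (-0.41) or 3 (-0.28) of day 2. The DMSO libraries of day 4 enter both the comparison with day 0 and those with the treatments at day 4, so a high level there raises one value and lowers the others.

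The joint test asked whether the effect of a treatment against DMSO differed between days. For BPK25 14 of the 33 members passed, where 47.1% of all genes tested did, and for IAA 22 passed, where 70.1% did. These shares are near those of all genes. Hist1h2af had the smallest p for BPK25 and Hist1h1c for IAA.

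Genes around the histone message were read from lists of known roles. In the list of transcription and processing, Slbp, which encodes the stem-loop binding protein, stood at 118.9 ± 3.38 CPM in IAA at day 6, against 173.8 ± 10.2 CPM in DMSO (-0.54 ± 0.05), and fell by 0.19 ± 0.05 in IAA at day 4. It did not pass in BPK25 on any day (values of -0.14, 0.02, -0.10 and -0.08 at days 0, 2, 4 and 6) or in DMSO over time. Npat, a co-activator of histone transcription, fell in BPK25 at days 0 and 2 (-0.19 ± 0.05 and -0.22 ± 0.05) and rose at day 4 (0.17 ± 0.05). In IAA Npat rose at days 2, 4 and 6 (0.30 ± 0.05, 0.25 ± 0.05 and 0.11 ± 0.05). Cpsf3, whose product cuts histone precursor RNA, rose in IAA at every day, by 0.40 ± 0.05 to 0.58 ± 0.05. Lsm10, a part of the U7 particle that guides this cut, fell in IAA at day 6 (-0.75 ± 0.23).

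The lists are described by counts only, beside the share of all genes tested. That share was 27.5% higher and 27.9% lower in IAA at day 2, 25.9% and 25.9% in IAA at day 4, 30.6% and 30% in IAA at day 6, and 26.2% and 26.8% in BPK25 at day 4. Of the 10 genes of transcription and processing, 4 rose and 2 fell in IAA at day 2, 5 rose and 4 fell in IAA at day 6, and 3 rose and 2 fell in BPK25 at day 4. With 10 genes, several of these counts lie near the share of all genes. Of the 7 decay genes, 5 rose and 1 fell in IAA at day 2. Eri1, which encodes an exonuclease that trims the stem-loop end, rose there by 0.60 ± 0.05 and in IAA at day 0 by 0.46 ± 0.06. At day 4 in BPK25, Upf1, which encodes a helicase needed for histone message decay, rose by 0.59 ± 0.04, and 3 decay genes rose and 0 fell. Of the 10 histone chaperone genes, whose products carry histones to DNA, 7 fell and 1 rose in IAA at day 2, 6 fell in BPK25 at day 4, 5 fell in IAA at day 4, and 8 fell and 1 rose in IAA at day 6. Ipo4, an importer of histones into the nucleus, fell by 1.61 ± 0.08 in IAA at day 2 and by 1.18 ± 0.08 in BPK25 at day 4.

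Genes listed as replication-independent histone genes mostly make variants throughout the cycle, from messages with poly(A) tails, though not every one need do so only. Their summed levels were several times those of the members, at 2125 to 2974 CPM in group means. Of the 11, 8 rose in BPK25 at day 2 and 0 fell, where 6.4% of all genes tested rose, among them H1f0, the linker variant of resting cells (0.41 ± 0.05). For BPK25 at day 4, 1 rose and 5 fell, with H2afy2, a macroH2A gene, at -0.89 ± 0.05. IAA at day 2 had 5 that rose and 3 that fell, with H1f0 at 0.91 ± 0.05 and H3f3b at 0.58 ± 0.04. IAA at day 4 had 2 that rose and 7 that fell, with H2afx, the variant that marks DNA breaks when phosphorylated, at -0.75 ± 0.06. In DMSO at day 4 against day 0, 5 rose and 1 fell, where 26% and 24.4% of all genes tested did.

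Genes of S phase and DNA replication did not follow the histone genes in every comparison. At day 2 in IAA, where 18 histone genes rose, 17 of the 30 fell and 6 rose, with Pola1, the catalytic subunit of DNA polymerase alpha, at -0.92 ± 0.06. In DMSO at day 4 against day 0, where 20 histone genes rose, 20 of the 30 fell and 2 rose, with Pola1 at -1.11 ± 0.06 and the replication factor gene Mcm10 at -0.85 ± 0.05. In BPK25 at day 4, 23 fell and 2 rose, with the origin licensing gene Cdc6 at -0.62 ± 0.06, and in IAA at day 6, 19 fell and 6 rose. Their summed level at day 4 was 3307 ± 11.9 CPM in BPK25 and 3733 ± 21.4 CPM in IAA, against 3993 ± 48.7 CPM in DMSO (SD, n = 3). Of the 7 inhibitors of the cycle, 3 rose and 2 fell in BPK25 at day 4, with Cdkn1a, the p53 target that blocks entry into S phase, at 1.21 ± 0.08, Cdkn1b at -0.37 ± 0.06 and Cdkn2d at -0.70 ± 0.13. In IAA at day 6, 4 rose and 1 fell, with Cdkn1c at 1.68 ± 0.09 and Cdkn2d at -0.40 ± 0.11. The largest adjusted p among the genes of these lists given with values as called was 0.0392, for Npat in IAA at day 6 by edgeR.

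**Figure D5:**
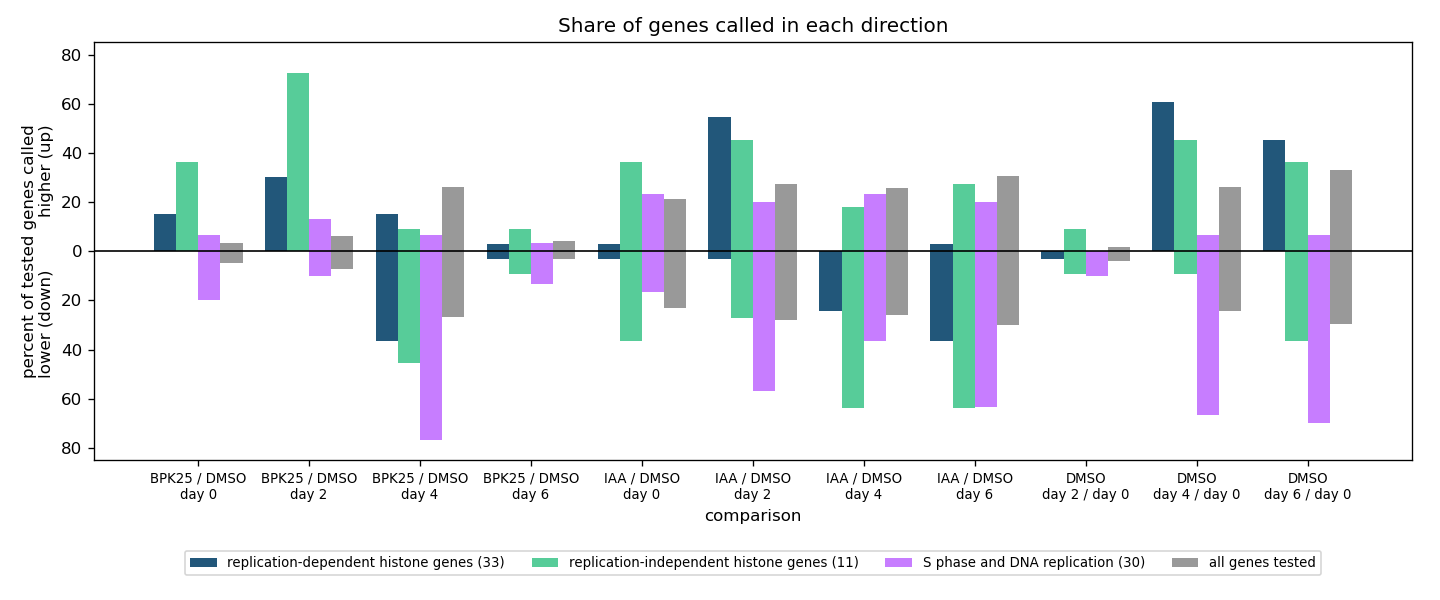
Percent of tested genes called higher (upward bars) and lower (downward bars) in each comparison, for the 33 replication-dependent histone genes, 11 replication-independent histone genes, 30 genes of S phase and DNA replication, and all genes tested. In IAA at day 2 and in DMSO at day 4 the bars of the replication-dependent genes point mainly up (18 and 20 genes) while those of the S phase genes point mainly down (17 and 20 genes).

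Markers of cell types moved with several of these comparisons, and their part in the histone values was not tested. Of all genes tested, 21.3% rose and 23.2% fell in IAA at day 0, and 27.5% and 27.9% at day 2. In IAA at days 4 and 6 the shares were 25.9% and 25.9%, and 30.6% and 30%. They were 26.2% and 26.8% in BPK25 at day 4. For DMSO against day 0 they were 26% and 24.4% at day 4, and 33.2% and 29.5% at day 6. With so few markers, some counts below lie near these shares. All 8 pluripotent cell markers fell in IAA at day 2 against DMSO and in DMSO at day 4 and day 6 against day 0. The summed level of the 8 was 1442 to 1468 CPM in IAA at day 2, against 2630 to 2675 CPM in DMSO. At day 0 it was 3848 to 3884 CPM in IAA, against 2788 to 2883 CPM in DMSO, and 7 of the 8 rose. Of the 8, 4 fell and 1 rose in BPK25 at day 4, with sums of 996.7 to 1025 CPM in BPK25, against 1117 to 1219 CPM in DMSO. At day 4 in IAA 6 of the 8 fell and 1 rose. Of the 10 fibroblast feeder markers, 3 rose and 4 fell in IAA at day 2 (median log2 fold change -0.02), although their sum was 236.8 to 251.7 CPM in IAA, against 149.4 to 157.1 CPM in DMSO. Of the 10, 2 (Dcn and Lum) were at 0 counts in those IAA libraries, and 0 were at 0 counts in all 3 DMSO libraries of day 2. What these 2 genes say of feeder cells was not tested. At day 4, 5 of the 10 fell and 1 rose in BPK25, with sums of 166.7 to 173.5 CPM in BPK25, against 239.0 to 249.2 CPM in DMSO. There too Dcn and Lum were at 0 counts in BPK25, and 0 of the 10 were so in all 3 DMSO libraries. In IAA 7 rose and 1 fell at day 4 (357.6 to 370.9 CPM), and 7 rose and 2 fell at day 6, with 541.6 to 547.4 CPM in IAA, against 364.3 to 370.3 CPM in DMSO. In DMSO 4 feeder markers rose at day 4 and 8 at day 6 against day 0. The DMSO sums were 166.8 to 173.0 CPM at day 0, 239.0 to 249.2 CPM at day 4 and 364.3 to 370.3 CPM at day 6.

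Members were also split by where the annotated transcript ends. In IAA at day 6, where 30% of all genes tested fell, 5 of 9 tested members ending within 100 bases of the stem-loop fell, as did 3 of 13 that run further and 4 of 11 with no match. In DMSO at day 4 against day 0, where 26% of all genes tested rose, 7 of the 9, 6 of the 13 and 7 of the 11 rose. The median log2 fold change there was 0.80 for the 9, 0.69 for the 13 and 0.67 for the 11, against 0.02 over all genes tested. In IAA at day 4, where 25.9% of all genes tested fell, 1 of the 9, 4 of the 13 and 3 of the 11 fell, and 0 rose. In BPK25 at day 4, where 26.8% fell and 26.2% rose, 4, 2 and 6 fell and 1, 3 and 1 rose. Where 27.5% of all genes tested rose, in IAA at day 2, 7 of the 9, 3 of the 13 and 8 of the 11 rose. The medians there were 0.81, 0.79 and 0.86, against -0.01 over all genes tested. Members that run further had the lowest share called in IAA at days 2 and 6 and in DMSO at day 4. In IAA at day 4 they had the highest share, so the order of the groups was not the same in all these comparisons. The differences between these groups of members were not tested.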

How the data were processed

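RNA libraries of mouse embryonic stem cells were compared as 12 groups of 3, taken from the labels. The values the authors deposited are unnormalized counts of reads for 55335 genes, which the file headers describe by ID, symbol and biotype. The submitters' processing notes name HISAT2 2.1.0, featureCounts 2.0.1, FastQC 0.11.7 and also DESeq2, and the mm10 build. Strand setting, multi-mapping and annotation were not given in the sources used here. All 67 members matched GENCODE M21 on GRCm38, used for positions and sequences.

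Everything below was computed from the deposited counts, with totals of 6621288 to 16497799 per library. The filter was filterByExpr of edgeR over 12 groups, with 10 as the minimum count and 15 as the minimum total, and 17394 genes passed. TMM scaling, CPM on scaled totals and 1 fit of all 36 libraries by edgeR's quasi-likelihood test were used, two-sided, with Benjamini-Hochberg adjustment over all genes tested. The common biological coefficient of variation was 3.86%. Versions were DESeq2 1.42.0, limma 3.58.1, edgeR 4.0.16 and R 4.3.3. Ratios of rates have exact 95% intervals, which cover counting error only, since reads carry no molecular identifiers and may repeat molecules. Precision is limited by low counts outside the H2A genes.

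The members and lists were chosen with earlier results of these data known. Genes named are the 3 of each class with the highest level per kb, up to 3 highest and 3 lowest log2 fold changes among called members without overlap in each treatment comparison and in DMSO between days 6 and 0, the 5 members with the lowest p in each joint test, up to 4 called genes per list, and Slbp, Npat, Lsm10, Lsm11 and Eri1. Not all of these are described, and some members are named beyond the rule after their values were seen. All 36 pairs of replicates differed beyond sampling noise (chi-square per degree of freedom 1.381 to 3.066), and 0 were identical. Alternatives tried were a replicate block, leaving out each library, fits on only the libraries compared, no filter or a stricter one, RLE scaling, and the Wald test of DESeq2.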

Additional observations from a re-analysis of the deposited data

Results flagged for a closer look

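In the joint tests, the effect against DMSO differed between days for several named members (edgeR's quasi-likelihood test, Benjamini-Hochberg over all genes tested). For BPK25 the adjusted p was 8.67e-20 for Hist1h2af, 1.76e-08 for Hist1h2ao, 8.24e-08 for Hist1h2ap, 5.08e-07 for Hist1h2ah and 1.19e-05 for Hist1h2ag by edgeR. Hist1h2af was higher in BPK25 in all 3 libraries at days 0 and 2 and lower in all 3 at days 4 and 6. Hist1h2ao, Hist1h2ap and Hist1h2ah had positive values in BPK25 at day 2 (0.88, 0.58 and 0.52 log2) and negative ones at day 4 (-0.38, -0.43 and -0.33).

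For IAA the adjusted p was 1.59e-10 for Hist1h1c, 2.53e-09 for Hist1h2ao, 2.6e-09 for Hist1h2af, 3.97e-08 for Hist1h2ap and 3.27e-07 for Hist1h1a by edgeR. Hist1h1c was higher in IAA at day 2 (0.47) and lower at day 4 (-0.97). Hist1h1a was higher at day 2 (1.36) and lower at days 4 (-0.82) and 6 (-0.97). Hist1h2af was lower on all days, by -1.13 at day 0 and -2.39 at day 6. The leading H2A genes are near copies, so these p-values are not independent.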

How the results depend on the processing

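Replicate numbers did not pair the libraries: 33 correlations of deviations lay between -0.028 and 0.026, and 8 were highest with their own number. With a replicate block, members higher in BPK25 at day 6 numbered 0 and other counts stayed within 1.5 times, for example 19 higher in IAA at day 2. DESeq2 gave 3 higher in BPK25 at day 4, 0 higher in BPK25 at day 6, 4 lower in IAA at day 4 and 0 lower in DMSO at day 2, and left 1 and 2 called members of BPK25 at days 0 and 2 without an adjusted p. With no filter, BPK25 at day 6 had 5 members higher and 2 lower, with 4 higher in IAA at day 0, 1 higher in IAA at day 4 and 3 lower in DMSO at day 2. With only the libraries compared, 2 were higher in IAA at day 0, 1 higher in IAA at day 4 and 2 lower in DMSO at day 2. RLE gave 2 higher in IAA at day 0. The cause was not tested. The stricter filter moved no count by over 1.5 times.

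Leaving out each library gave 3 to 5 members higher in BPK25 at day 0, 3 to 5 at day 4 and 0 to 3 at day 6, and 1 to 2 in IAA at day 0 and 0 to 1 at day 4. It gave 8 to 11 lower in BPK25 at day 4, 4 to 8 lower in IAA at day 4 and 8 to 13 at day 6. In DMSO it gave 0 to 1 lower at day 2, 13 to 18 higher at day 4 and 5 to 14 higher at day 6. Of 112 calls of a member in a comparison, 58 held without each library. Among 348 values of named genes under alternatives, 26 lost their call and 0 changed sign. Depth limits H3 and H4 most, since 1.02% and 1.48% of histone counts fell on them.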

Other observations

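Histone gene models outside the protein-coding type also held reads. Hist1h2aj, typed as an unprocessed pseudogene, had 7489 counts over all libraries, more than the 4379 of Hist1h2ai, while Hist1h2al had 95 and Hist3h2bb-ps 11. These were not counted among the members.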
